A study of Homo sapiens with 15 samples.

Results

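The polyamine metabolism genes are 10 genes that make, restrain or break down the polyamines, among 43388 genes with counts in each RNA-seq library of A549 cells. They are ODC1, AMD1, SRM and SMS, which carry out synthesis, OAZ1, OAZ2 and AZIN1, which set the activity of ODC1, and SAT1, SMOX and PAOX, which break polyamines down. The set was selected on the counts of SMOX, an oxidase that releases hydrogen peroxide and that was seen to be higher in hyperoxia in these same libraries, and the other 9 were added by name as genes of the same pathway, so the oxygen difference of SMOX is a description here and carries no test. All 10 passed the filter on low counts.

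A549 is an established human lung adenocarcinoma line with alveolar epithelial features, labelled WT, and it is 1 line grown in DMEM with fetal bovine serum. Cells received 1e-05 mM ATRA (all-trans retinoic acid), ethanol vehicle or no vehicle for 24 hours, and then spent 72 hours under hyperoxia (95% oxygen) or normoxia (21% oxygen). At each oxygen exposure there were 3 ATRA libraries, 2 vehicle libraries and 2 libraries without vehicle, 14 in all, and a library whose labels conflict entered no comparison. The labels do not say whether libraries came from separate cultures, so p-values measure the spread between these libraries, which may be technical.

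Putrescine, spermidine and spermine are small positively charged amines that bind RNA, DNA and phospholipids and are needed for cell growth. ODC1 converts ornithine to putrescine, AMD1 makes the aminopropyl donor from S-adenosylmethionine, and SRM and SMS add aminopropyl groups to give spermidine and then spermine. Antizymes bind ODC1 and send it to the proteasome, the antizyme inhibitor AZIN1 takes antizyme away from ODC1, SAT1 acetylates spermidine and spermine, PAOX oxidizes the acetylated forms, and SMOX oxidizes spermine directly. ODC1, AMD1, SAT1 and the antizymes are under strong control at the level of translation and protein stability, so transcript levels give only part of their activity.

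The libraries held between 2642377 and 5605072 counts on genes, and 3 counts corresponded to between 0.53 and 1.15 CPM (normalized counts scaled to a common library size), a limit that covers counting error only. Hyperoxia library 1 without vehicle stood apart, with 12657 genes having a count against 16465 to 20108 in the other 13 libraries, and lay at -198.9 on the first principal component while the others lay between -9.3 and 35.6. Hyperoxia ATRA library 1 lay at -81.8 on the third component. KRT8, KRT18, KRT19 and CDH1, epithelial markers, had counts in all 14 libraries and EPCAM in 11, at no more than 4.8 CPM. The alveolar type II marker SFTPA1, the endothelial marker VWF and the fibroblast marker DCN had 0 counts throughout. Other markers of these kinds did have counts, among them SFTPB and CDH5 in 4 libraries each, COL1A1 in 12 and PDGFRA in 11. Their highest levels were 1.3, 5.22, 12.2 and 1.37 CPM. DHRS3, a retinoid-induced gene used to check the ATRA exposure, rose with ATRA by 1.63 (log2) in normoxia and 1.86 in hyperoxia (edgeR adjusted p = 4.5e-06 and 4.84e-07).

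The promoters of 3 members of synthesis are shown because these members moved most with oxygen (ODC1 and AMD1) or hold a binding motif named below (SRM). They were taken from RefSeq for GRCh38.p14 and run 5′ to 3′ on the strand of the gene up to the transcription start. RefSeq windows of 300 bases (250 before to 50 after a start) matched 7 of the members. Both strands were searched for CACGTG (the E-box, bound by MYC and related factors), for TGACNNNGC (the core of the antioxidant response element) and for a direct repeat of AGGTCA with a 5-base spacer (direct repeat 5, bound by retinoic acid receptors). Capitals mark a match. ODC1 lies at chr2:10439968-10448327 on the minus strand, and the window shown is chr2:10448324-10448577, whose last 4 bases are in the first exon so that the match is whole.
ODC1 promoter: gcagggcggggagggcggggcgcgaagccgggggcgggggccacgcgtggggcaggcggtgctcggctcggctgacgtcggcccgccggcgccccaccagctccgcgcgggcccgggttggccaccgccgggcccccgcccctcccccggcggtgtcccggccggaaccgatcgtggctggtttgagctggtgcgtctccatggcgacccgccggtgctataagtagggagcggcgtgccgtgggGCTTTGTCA
The capitals in ODC1 are the antioxidant response element core read on the opposite strand, 5 bases before the start. A second stretch of ODC1, in the first intron at chr2:10448002-10448041, holds an E-box at either end and starts 80 bases from the first exon.
ODC1 first intron: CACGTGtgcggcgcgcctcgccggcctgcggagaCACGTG
SRM lies at chr1:11054589-11060018 on the minus strand, and its window is chr1:11060019-11060268, with an E-box 199 bases before the start.
SRM promoter: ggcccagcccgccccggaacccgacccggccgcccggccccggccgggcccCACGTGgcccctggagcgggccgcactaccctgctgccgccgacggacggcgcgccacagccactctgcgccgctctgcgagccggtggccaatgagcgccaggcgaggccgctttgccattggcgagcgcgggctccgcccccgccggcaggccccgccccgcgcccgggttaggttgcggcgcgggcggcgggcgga
AMD1 lies at chr6:110814617-110895713 on the plus strand, and the window before its main start is chr6:110874535-110874784, which holds none of the 3 motifs.
AMD1 promoter: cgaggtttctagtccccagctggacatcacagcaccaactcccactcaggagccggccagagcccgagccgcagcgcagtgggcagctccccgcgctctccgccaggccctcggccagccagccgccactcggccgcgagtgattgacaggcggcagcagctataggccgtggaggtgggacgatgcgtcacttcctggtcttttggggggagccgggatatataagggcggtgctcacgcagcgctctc
Among 35097 RefSeq windows, 7.25% held the E-box, 13.3% the antioxidant response element core and 0.0057% the direct repeat. The windows of SAT1, OAZ1, OAZ2 and SMS held none of the 3. A match is a description of letters and not evidence of binding.

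ODC1 and SMOX were the members with the largest higher levels in hyperoxia, and AMD1 the member with the largest lower level, with and without ATRA. Over the 7 hyperoxia and 7 normoxia libraries, 5 of 10 members did not overlap between exposures, beside 13.7% of the 15339 genes tested. Higher without overlap were SMOX, ODC1 and AZIN1, beside 6.34% of genes, and lower were SMS and AMD1, beside 7.31%. SMOX is the gene that led to the choice of the set, so its place in this count is no finding. The other members were chosen with earlier results of these data known, so the count only describes them. In bulk RNA, fewer cells of a kind and less RNA per cell cannot be told apart.

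**Figure D1:**
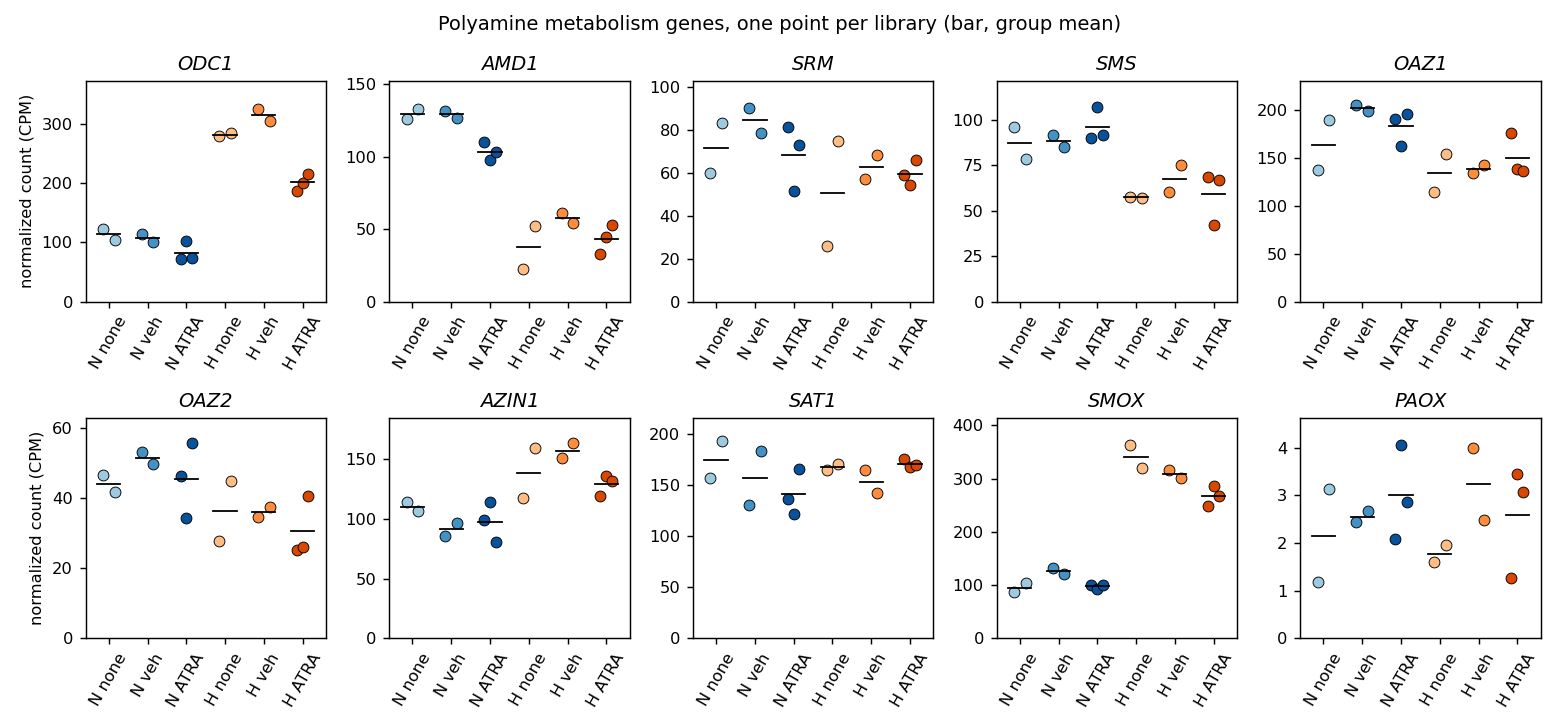
Normalized counts (CPM, vertical axis from 0) of the 10 polyamine metabolism genes, 1 point per library, in normoxia (N, blue) and hyperoxia (H, orange) without vehicle (none), with vehicle (veh) or with ATRA, and a bar at each group mean. The 7 hyperoxia points of SMOX, ODC1 and AZIN1 lie above all 7 normoxia points, those of SMS and AMD1 lie below them, and the points of the other 5 genes overlap.

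Among the synthesis genes, ODC1, the first enzyme of the pathway, stood at 114 and 101 CPM in the 2 normoxia vehicle libraries and at 326 and 305 CPM in the 2 hyperoxia vehicle libraries. Without vehicle it stood at 123 and 104 CPM in normoxia and at 280 and 284 CPM in hyperoxia. Every hyperoxia library lay above every normoxia library, the lowest in hyperoxia at 187 CPM and the highest in normoxia at 123 CPM. On the log2 scale the fold change was 1.56 with vehicle (SE 0.16) and 1.31 without vehicle (SE 0.17), 2.95 and 2.48 times the normoxia level. As these are the contrasts from which the set was chosen, no test is given for any member in them.

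The members were chosen with earlier results of these data known, so the tests with ATRA are not independent of that choice. With ATRA, ODC1 rose again, from 71.5, 102 and 73.6 CPM in normoxia to 187, 201 and 216 CPM in hyperoxia. The 3 hyperoxia values did not overlap the 3 normoxia values. Its rise was 1.29 on the log2 scale (SE 0.14, 95% interval 1.01 to 1.57, edgeR adjusted p = 4.56e-07, where adjusted means by Benjamini and Hochberg over all 14957 genes in the quasi-likelihood fit). It ranged from 1.20 to 1.47 over 10 fits that each left out 1 library.

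AMD1, which makes decarboxylated S-adenosylmethionine for both later steps, went the other way. It stood at 132 and 127 CPM in normoxia and 61.5 and 54 CPM in hyperoxia with vehicle, and at 126 and 133 CPM in normoxia and 22.6 and 52.4 CPM in hyperoxia without vehicle. The lowest value was that of hyperoxia library 1 without vehicle, the library that stood apart, and the other 6 hyperoxia libraries were still below all 7 normoxia libraries. Its log2 fold change was -1.17 with vehicle (SE 0.19) and -1.82 without vehicle (SE 0.29). The value without vehicle was -1.31 when the library that stood apart was left out and -2.57 when it was the lone hyperoxia library. In that last fit the median of all genes was -0.46.

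In the ATRA libraries AMD1 fell from 110, 98 and 103 CPM to 33.2, 44.4 and 53.1 CPM. These groups did not overlap, with a log2 fold change of -1.26 (SE 0.16, 95% interval -1.59 to -0.93, edgeR adjusted p = 5.29e-06). Without hyperoxia ATRA library 1, the other library that stood apart and the lowest of the 3, it was -1.08, the smallest change over the 10 fits that left out a library, and none of these lost the call. AMD1 overlaps CDK19, a gene on the opposite strand, over 1239 bases, and CDK19 held 29.1% as many counts. Whether the counting used strand is not given in the sources used here.

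SMS, spermine synthase, was lower in hyperoxia by a smaller amount. It stood at 91.4 and 85 CPM in normoxia against 60.2 and 75 CPM in hyperoxia with vehicle, and at 95.9 and 78.2 CPM against 57.7 and 57 CPM without vehicle. With ATRA it stood at 90.2, 107 and 91.6 CPM in normoxia and at 68.3, 42.1 and 67.1 CPM in hyperoxia. No hyperoxia library reached the lowest normoxia library. With ATRA its log2 fold change was -0.68 (SE 0.17, 95% interval -1.03 to -0.34, edgeR adjusted p = 0.00476), and it was -0.38 with vehicle (SE 0.20) and -0.60 without (SE 0.22), described without a test.

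SRM, spermidine synthase, overlapped between the exposures when all 14 libraries were taken. With vehicle it stood lower in hyperoxia, at 57.3 and 68.5 CPM against 90.4 and 78.9 CPM, a log2 fold change of -0.42 (SE 0.20). Its levels over the 7 normoxia libraries ran from 51.5 to 90.4 CPM (median 78.9), and over the 7 hyperoxia libraries from 26 to 75.2 CPM (median 59.1). With ATRA the difference was -0.20 on the log2 scale (SE 0.17, 95% interval -0.55 to 0.15, edgeR adjusted p = 0.438). Without vehicle it was -0.53 and turned to 0.07 when hyperoxia library 1, at 26 CPM, was left out.

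The 3 regulators of ODC1 did not move together. AZIN1, the antizyme inhibitor, stood at 86.2 and 97 CPM in normoxia and 151 and 164 CPM in hyperoxia with vehicle, at 114 and 107 CPM against 118 and 160 CPM without vehicle, and at 98.9, 114 and 80.4 CPM against 119, 136 and 132 CPM with ATRA. The lowest hyperoxia library, at 118 CPM, lay close to the highest normoxia library, at 114 CPM. AZIN1 had a log2 fold change of 0.78 with vehicle (SE 0.16) and 0.33 without (SE 0.18), and of 0.40 with ATRA (SE 0.14, 95% interval 0.12 to 0.68, edgeR adjusted p = 0.0368).

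Without vehicle the difference of AZIN1 was 0.53 when hyperoxia library 1 was left out and 0.038 when library 2 was. The ATRA call of AZIN1 was close to the threshold. It was lost in the fit of all 14 libraries (adjusted p = 0.0955), in the fit of the ATRA libraries alone (adjusted p = 0.0841) and on leaving out any of 8 of the 10 libraries in turn (the highest adjusted p was 0.228, without normoxia ATRA library 3). The log2 fold change stayed between 0.25 and 0.52.

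OAZ1 and OAZ2, the 2 antizymes, ran lower in hyperoxia but overlapped. OAZ1 lay between 137 and 205 CPM in normoxia (median 191) and between 115 and 176 CPM in hyperoxia (median 139), with a log2 fold change of -0.54 with vehicle (SE 0.15), -0.28 without (SE 0.19) and -0.28 with ATRA (SE 0.13, 95% interval -0.54 to -0.02, edgeR adjusted p = 0.115). Without vehicle it was -0.09 when hyperoxia library 1 was left out, and ranged from -0.56 to -0.067 over the fits that left out a library. Without hyperoxia ATRA library 1, whose 176 CPM was the highest hyperoxia value, the ATRA difference was -0.42 (edgeR adjusted p = 0.0187).

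OAZ2 lay between 34.3 and 55.7 CPM in normoxia (median 46.6) and between 25.1 and 45 CPM in hyperoxia (median 34.5). Its log2 fold change with ATRA was -0.57 (SE 0.22, 95% interval -1.02 to -0.13, edgeR adjusted p = 0.059). The adjusted p of OAZ2 crossed the threshold without normoxia ATRA library 2 (0.0206), without hyperoxia ATRA library 3 (0.0115) and in 2 other settings given at the end. With vehicle its log2 fold change was -0.51 (SE 0.26). Without vehicle it was -0.29 (SE 0.30), and 0.02 when hyperoxia library 1 was left out or -0.73 when library 2 was.

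Among the breakdown genes, SMOX was the member with a gap between the exposures. SMOX, spermine oxidase, stood at 132 and 120 CPM in normoxia and 316 and 301 CPM in hyperoxia with vehicle, at 87.2 and 103 CPM against 363 and 320 CPM without vehicle, and at 101, 93.3 and 101 CPM against 248, 287 and 268 CPM with ATRA. The lowest hyperoxia library, at 248 CPM, was above the highest normoxia library, at 132 CPM. SMOX had a log2 fold change of 1.30 with vehicle (SE 0.14), 1.84 without (SE 0.14) and 1.44 with ATRA (SE 0.11), and the value without vehicle was 1.75 when hyperoxia library 1 was left out. All of these describe the rise for which the set was chosen.

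SAT1, the acetyltransferase of the other breakdown route, did not show such a difference. It lay between 122 and 193 CPM in the 7 normoxia libraries (median 157) and between 142 and 176 CPM in the 7 hyperoxia libraries (median 168). The log2 fold change was -0.05 with vehicle (SE 0.17) and -0.06 without (SE 0.18). With ATRA it was 0.27 (SE 0.14, 95% interval -0.02 to 0.56, edgeR adjusted p = 0.173), the 3 hyperoxia libraries at 176, 168 and 170 CPM lying just above the 3 normoxia libraries at 137, 122 and 166 CPM.

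PAOX, the peroxisomal oxidase that acts after SAT1, was near the limit of counting, at 6 to 15 counts per library. It lay between 1.17 and 4.06 CPM in normoxia and between 1.26 and 3.98 CPM in hyperoxia. PAOX had a log2 fold change with ATRA of -0.24 (SE 0.75, 95% interval -1.80 to 1.33, edgeR adjusted p = 0.864), and a change smaller than this interval was not detectable at this depth.

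**Figure D2:**
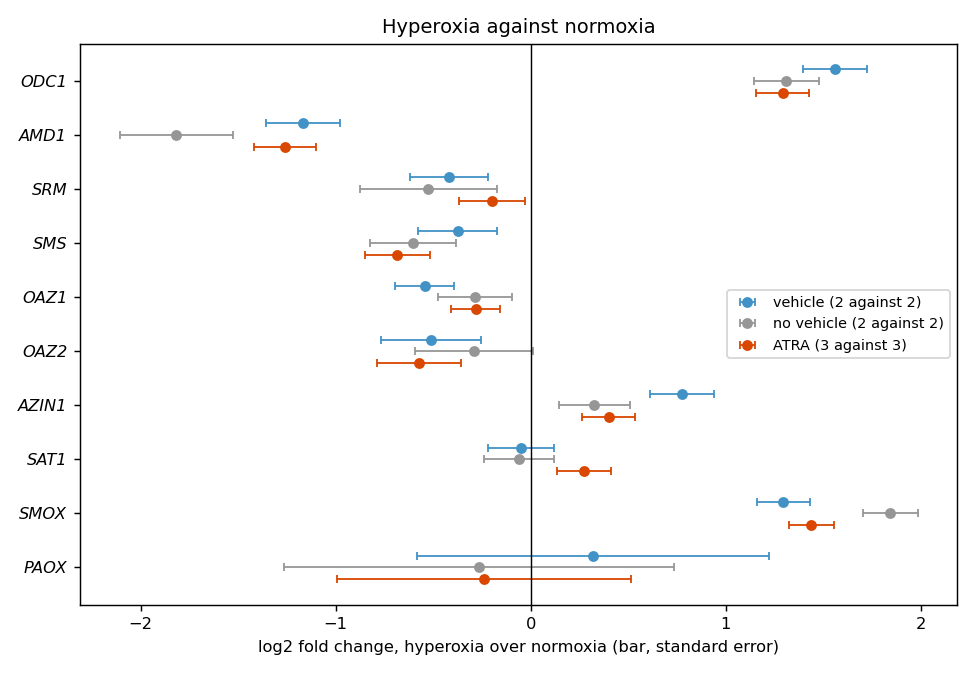
Log2 fold change of hyperoxia over normoxia (horizontal axis, 0 marked by a line) for the 10 genes, with vehicle (blue, 2 against 2), without vehicle (grey, 2 against 2) and with ATRA (red, 3 against 3), and bars of 1 standard error. ODC1 and SMOX lie above 1 and AMD1 below -1 in all 3. Bars that reach 0 are those of PAOX in all 3, of SAT1 with and without vehicle, and of OAZ2 without vehicle.

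In the ATRA libraries, 4 of the 9 members other than SMOX were called, ODC1 and AZIN1 higher and SMS and AMD1 lower, beside 22.7% of the 14957 genes tested (11.4% higher and 11.3% lower). At an unadjusted p under 0.05 there were 6 of 9, beside 34.1%. The median log2 fold change of the 9 was -0.24, and that of all genes 0.01. With vehicle, 3 of the 10 members were past 2-fold (ODC1 and SMOX higher, AMD1 lower), beside 18.9% of genes, and without vehicle the same number, beside 31.8%. SMOX, the gene that led to the choice of the set, is among them in both, so its place in these counts is no finding. For the other members the counts are descriptions, since they were chosen with earlier results of these data known. The median log2 fold change of all genes was -0.10 without vehicle, and the members' values there are to be read against it. It was -0.46 when hyperoxia library 2 without vehicle was left out, and the values of that fit are to be read against this. The summed level of 5 epithelial markers also differed between the exposures, at 1690 to 4200 CPM in hyperoxia and 5740 to 9560 CPM in normoxia, and that of 4 fibroblast markers at 0 to 2.12 CPM and 1.87 to 12.2 CPM. The part of either in the members' oxygen differences was not tested. The summed levels of the alveolar type II, leukocyte and endothelial markers did not exceed 2.61, 0.261 and 6.26 CPM in any library.

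Levels were compared between genes only per kilobase of the canonical GENCODE 44 transcript. In normoxia with vehicle, OAZ1 stood highest at 176 ± 3.30 CPM per kb (SD, n = 2), followed by SAT1 at 150 ± 36.2, SRM at 67.2 ± 6.42 and SMOX at 58.2 ± 4.04. SMS, ODC1, AMD1, OAZ2 and AZIN1 followed, from 51.8 down to 21.8 CPM per kb, and PAOX stood at 1.39. In that order only OAZ1 and SAT1 had library values that overlapped.

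In hyperoxia with vehicle, SAT1 stood at 146 ± 15.6 CPM per kb (SD, n = 2), SMOX at 143 ± 4.95, ODC1 at 127 ± 5.74 and OAZ1 at 121 ± 5.25. SMOX ranked 2 of 10 in hyperoxia and 4 in normoxia, ODC1 3 and 6, and AMD1 9 and 7. Neighbours whose libraries overlapped in the hyperoxia order were SAT1 and SMOX, ODC1 and OAZ1, SMS and AZIN1, and OAZ2 and AMD1.

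**Figure D3:**
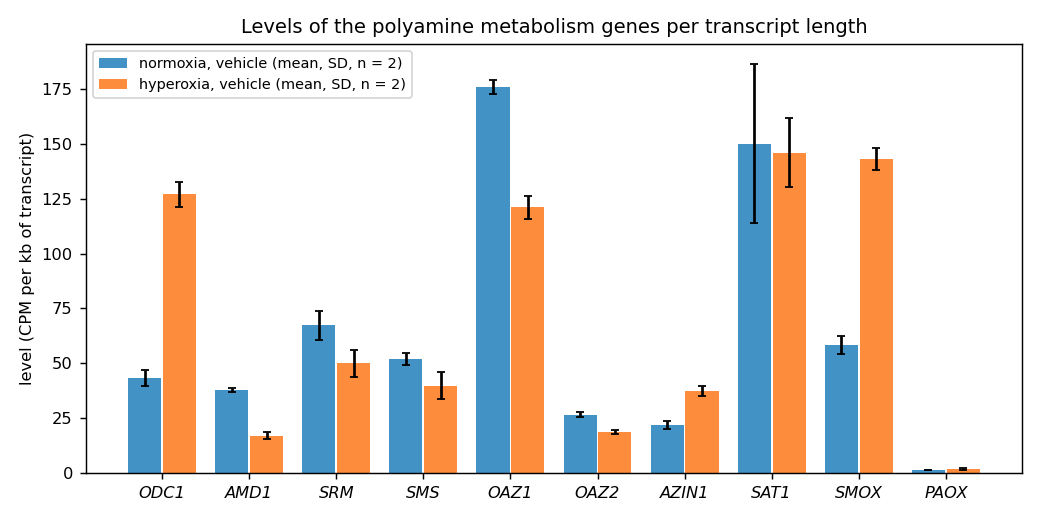
Mean level per kilobase of transcript (CPM per kb, vertical axis from 0) of the 10 genes in normoxia with vehicle (blue) and hyperoxia with vehicle (orange), with bars of 1 SD over 2 libraries. In normoxia OAZ1 and SAT1 stand above the other 8 genes, and in hyperoxia ODC1 and SMOX stand at 127 and 143 CPM per kb beside them.

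ATRA was compared with vehicle at each oxygen exposure, and these comparisons share their vehicle libraries with the oxygen comparison above. In hyperoxia ODC1 was lower with ATRA, at 187, 201 and 216 CPM against 326 and 305 CPM with vehicle and 280 and 284 CPM without vehicle. The 3 ATRA libraries lay below all 4 others. Against vehicle the log2 fold change was -0.65 (SE 0.14, 95% interval -0.94 to -0.35, edgeR adjusted p = 0.014), or 0.638 times the vehicle level. ODC1 was the only one of the 10 members called, beside 2.21% of genes in either direction and 0.695% lower, and ODC1 and AMD1 were the 2 with an unadjusted p under 0.05, beside 13.5%.

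This call of ODC1 depended on the libraries in the fit, though the direction of the change did not. The change was smaller against the libraries without vehicle. The adjusted p was 0.243 without hyperoxia vehicle library 1 and 0.105 without hyperoxia vehicle library 2, fits in which the lone vehicle library is taken to vary like the other groups. It was 0.0566 in the fit of all 14 libraries and 0.0149 when hyperoxia library 1 without vehicle was left out of that fit. Against the libraries without vehicle the log2 fold change was -0.49 (edgeR adjusted p = 0.16). Over the 10 fits that left out a library, the log2 fold change against vehicle stayed between -0.71 and -0.60.

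In normoxia ODC1 stood at 71.5, 102 and 73.6 CPM with ATRA against 114 and 101 CPM with vehicle, which overlap. ODC1 differed by -0.38 on the log2 scale (SE 0.15, 95% interval -0.70 to -0.07, edgeR adjusted p = 0.401). The ATRA effects in hyperoxia and normoxia differed by -0.27 (SE 0.21, 95% interval -0.70 to 0.17, edgeR adjusted p = 0.849), so a difference between them was not shown. Averaged over both exposures, a comparison added after the values had been seen, ODC1 was lower with ATRA by -0.51 on the log2 scale (SE 0.10, edgeR adjusted p = 0.00481).

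SMOX in hyperoxia was at 248, 287 and 268 CPM with ATRA, below the 4 libraries at 301 to 363 CPM without it. With ODC1 it was the other of 2 members whose ATRA libraries lay below all 4 hyperoxia libraries without ATRA, beside 5.45% of genes lower and 12.1% in either direction. SMOX was selected for its level in hyperoxia, so its place in this count is a description. The difference from vehicle was -0.21 (SE 0.12, 95% interval -0.46 to 0.04, edgeR adjusted p = 0.479). In normoxia SMOX differed by -0.35 from vehicle (SE 0.13, edgeR adjusted p = 0.299) and by 0.05 from the libraries without vehicle, so its direction depended on the control.

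AMD1 in hyperoxia stood at 33.2, 44.4 and 53.1 CPM with ATRA, below both vehicle libraries at 61.5 and 54 CPM but overlapping the libraries without vehicle at 22.6 and 52.4 CPM. AMD1 differed from vehicle by -0.41 on the log2 scale (SE 0.18, edgeR adjusted p = 0.296), and from the libraries without vehicle by 0.24. The latter rested on hyperoxia library 1, and was -0.28 when that library was left out. In normoxia the 3 ATRA libraries, at 110, 98 and 103 CPM, lay below all 4 libraries without ATRA, at 126 to 133 CPM. AMD1 was the only member to do so or to lie above them there, beside 12.7% of genes, and against vehicle it changed by -0.32 on the log2 scale (SE 0.17, edgeR adjusted p = 0.638).

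The other 7 members had log2 fold changes against vehicle between -0.29 and 0.22 in normoxia and between -0.34 and 0.16 in hyperoxia, all with an edgeR adjusted p above the threshold. SAT1 stood at 176, 168 and 170 CPM with ATRA and 165 and 142 CPM with vehicle in hyperoxia, a difference of 0.16 (SE 0.15, edgeR adjusted p = 0.725). AZIN1, lower with ATRA in hyperoxia by -0.29 (SE 0.15, 95% interval -0.60 to 0.01), was higher by 0.09 in normoxia (SE 0.15). The difference between these ATRA effects of AZIN1 had the smallest p of the 10 members (edgeR adjusted p = 0.78).

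**Figure D4:**
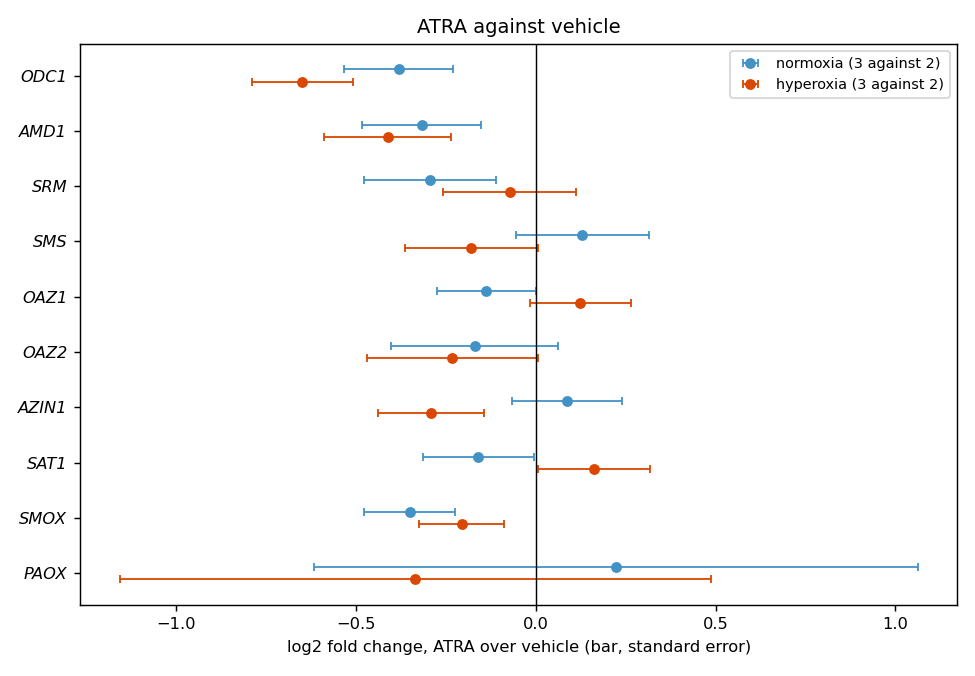
Log2 fold change of ATRA over vehicle (horizontal axis, 0 marked by a line) for the 10 genes in normoxia (blue, 3 against 2) and hyperoxia (red, 3 against 2), with bars of 1 standard error. ODC1, AMD1, SMOX, SRM and OAZ2 lie below 0 at both exposures, and ODC1 in hyperoxia at -0.65 is the point farthest below 0.

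In normoxia 0 of 10 members were called with ATRA by edgeR and 0 by DESeq2, beside 1.25% of genes by edgeR, with 2 (SMOX and ODC1) at an unadjusted p under 0.05, beside 8.79%. For the difference of the ATRA effects between exposures, 0 of 10 were called by either tool, beside 0.14% of genes by edgeR, and 0 had an unadjusted p under 0.05, beside 7.21%. The median log2 fold change of the members with ATRA was -0.17 in normoxia and -0.22 in hyperoxia, and that of all genes was 0.00 in both.

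The ethanol vehicle was compared with no vehicle. In normoxia 0 of 10 members were called by edgeR or DESeq2, beside 0% of 15339 genes, and SMOX alone had an unadjusted p under 0.05, beside 0.867% of genes. Its log2 fold change was 0.40 (SE 0.14, edgeR adjusted p = 1). SMOX stood there at 132 and 120 CPM with vehicle and at 87.2 and 103 CPM without, which do not overlap. In hyperoxia 0 of 10 were called by either tool, beside 0.00652% of genes, and AMD1 alone had an unadjusted p under 0.05, beside 8.91%. AMD1 differed by 0.65 on the log2 scale (SE 0.29, edgeR adjusted p = 0.554), and this value rested on hyperoxia library 1 without vehicle, at 22.6 CPM. It was 0.14 when that library was left out, and 1.38 when that library was the lone library without vehicle. In that last fit SRM differed by 1.31, and the median log2 fold change of all genes was 0.34.

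A further 33 genes of the pathway, from the supply of ornithine and methionine to polyamine transport and hypusine, were listed, of which 27 were tested. The other 6 fell below the filter, with at most 8 counts in a library. With vehicle, 1 of the 27 rose in hyperoxia and 1 fell, beside 17.5% of genes (8.68% higher and 8.81% lower), and 6 had an unadjusted p under 0.05, beside 28.5%. With ATRA, 1 rose and 3 fell, beside 22.7%, and 9 had an unadjusted p under 0.05, beside 34.1%. The median log2 fold change of the 27 was -0.18 with vehicle and -0.11 with ATRA. Under DESeq2 the calls numbered 3 with vehicle and 4 with ATRA, beside 2625 and 3338 of 24667 genes.

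The gene of this list that rose in both was ADI1, a dioxygenase of the salvage route that recovers methionine from the by-product of SRM and SMS. It stood at 86.9 ± 6.32 CPM (SD, n = 2) in normoxia and 183 ± 21.0 CPM (SD, n = 2) in hyperoxia with vehicle, a log2 fold change of 1.08 (SE 0.16, edgeR adjusted p = 5.34e-05). With ATRA the log2 fold change of ADI1 was 0.85 (SE 0.13, edgeR adjusted p = 7.03e-05). MAT2A, which makes S-adenosylmethionine, the substrate of AMD1, fell with vehicle by 0.49 on the log2 scale (SE 0.14, edgeR adjusted p = 0.0158), from 280 ± 16.3 to 199 ± 23.6 CPM (SD, n = 2 each). With ATRA its log2 fold change was -0.26 (SE 0.11, edgeR adjusted p = 0.103), which was not called. The call of MAT2A was lost without hyperoxia vehicle library 1 (adjusted p = 0.202) or normoxia vehicle library 1 (adjusted p = 0.117).

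Between the exposures in the ATRA libraries, 3 genes of this list fell in hyperoxia. SLC22A3, an organic cation transporter that also carries polyamines, fell from 67.9 ± 2.07 CPM in normoxia to 38.8 ± 9.74 CPM in hyperoxia (SD, n = 3 each). Its log2 fold change was -0.81 (SE 0.18, edgeR adjusted p = 0.00179). EIF5A, the translation factor that carries hypusine made from spermidine, fell by 0.41 on the log2 scale (SE 0.10, edgeR adjusted p = 0.00479). ALDH18A1, an enzyme of proline and ornithine synthesis, fell by 0.55 (SE 0.14, edgeR adjusted p = 0.00667). The corresponding log2 fold changes with vehicle were -0.59 for SLC22A3 (adjusted p = 0.0601), -0.31 for EIF5A (adjusted p = 0.0971) and -0.31 for ALDH18A1 (adjusted p = 0.247), all from edgeR. With ATRA against vehicle, 0 of the 27 were called by edgeR at either exposure, beside 1.25% of genes in normoxia and 2.21% in hyperoxia. Those with an unadjusted p under 0.05 numbered 3 at each, beside 8.79% and 13.5%. DESeq2 called 0 in normoxia and 1 in hyperoxia, beside 268 and 476 of 24667 genes.

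**Figure D5:**
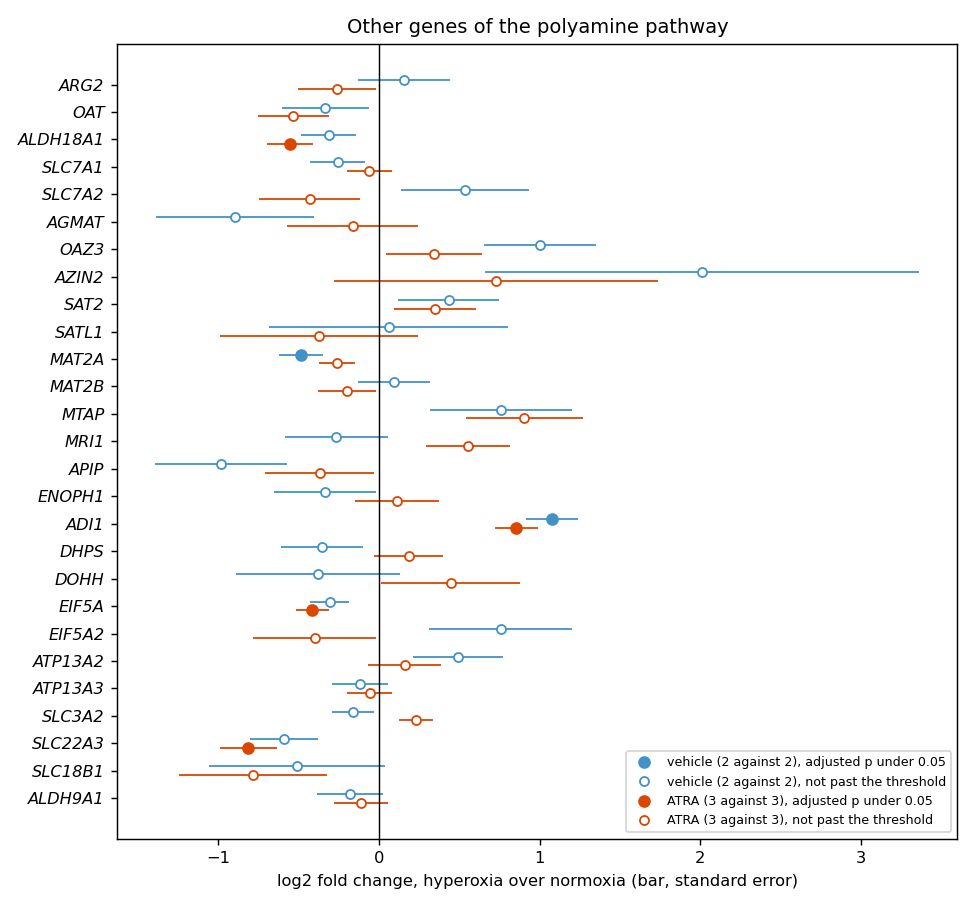
Log2 fold change of hyperoxia over normoxia (horizontal axis, 0 marked by a line) for the 27 other genes of the polyamine pathway that were tested, with vehicle (blue, 2 against 2) and with ATRA (red, 3 against 3), and bars of 1 standard error. Filled points have an adjusted p under 0.05: ADI1 in both, MAT2A with vehicle, and SLC22A3, EIF5A and ALDH18A1 with ATRA.

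The genes most like SMOX, SAT1 and ODC1 were sought among 10410 genes with a mean of at least 10 CPM, by the root mean square difference of log2 levels over the 6 group means, each gene centred on its own mean. Nearest to SMOX were MEG3, at a difference of 0.06, and TNFRSF10A, HMOX1, TGFA and TSSC4, at 0.09 to 0.11. HMOX1 is heme oxygenase, and TNFRSF10A is a death receptor. Nearest to SAT1, whose group means hardly differ, were POLR3B, ACVR1B, SNAP47, RASSF2 and ZC3HAV1, at 0.02 to 0.05. Nearest to ODC1 were FTH1, the ferritin heavy chain, EIF1, NCEH1, RNF40 and RNU4-1, all at 0.12 to 0.13. With 6 group means, of which 2 include a library that stood apart, these are descriptions of likeness.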

How the data were processed

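RNA of A549 cells was sequenced from stranded libraries (NEXTFLEX Rapid Directional kit) in 14 libraries of 6 groups. The deposited values are raw read counts per gene symbol, which the authors made by trimming with Trimmomatic 0.38 (reads under 50 nt dropped), aligning to hg38 with hisat2 and counting with htseq. The annotation release and the strand and overlap settings are not given in the sources used here. Reads that fell on no gene made up 48.6% to 55.3% of the total per library. They were left out of library sizes, along with any other reads not assigned to a gene. No 2 libraries of the 91 pairs held identical counts.

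Counts were tested with the quasi-likelihood method of edgeR 4.0.16 in R 4.3.3 after filterByExpr (minimum count 10, minimum total count 15) and TMM normalization. A fit of 10 libraries in 4 groups (14957 genes) gave the vehicle and ATRA comparisons, and a fit of 14 libraries in 6 groups (15339 genes) gave those with the libraries without vehicle. A call is a Benjamini-Hochberg adjusted p under 0.05. CPM values use the TMM sizes of the 14 libraries, and likeness between genes used log2 CPM with a prior count of 2. SE is the log2 fold change divided by the square root of the F statistic. Positions and promoters came from RefSeq for GRCh38.p14, and transcript lengths from GENCODE 44. The tests were first checked on simulated data. Figures used matplotlib 3.10.9 (Python 3.11.15).

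The members and lists were chosen with earlier results of these data known. Named genes are all members, the genes of the wider list that were called, the 5 genes most like SMOX, SAT1 and ODC1, and DHRS3 for the ATRA exposure. CDKN1A, listed to check the oxygen exposure, changed by 3.34 with vehicle and 3.83 with ATRA on the log2 scale. Alternatives were DESeq2 1.42.0, RLE size factors, no filter, other sets of libraries, a block of runs of library numbers, libraries without vehicle as controls, and each library left out in turn. The library whose title and treatment label conflict entered no comparison.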

Additional observations from a re-analysis of the deposited data

Results flagged for a closer look

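The library left out because its title and treatment label conflict had levels above all 4 normoxia libraries without ATRA for 4 members. SMOX stood at 302 CPM there, against 87.2 to 132 CPM in those normoxia libraries, and ODC1 at 283 CPM against 101 to 123 CPM. AZIN1 stood at 136 CPM against 86.2 to 114 CPM, and PAOX at 3.96 CPM against 1.17 to 3.12 CPM. It lay below all 4 for 3 members, AMD1 at 55.8 CPM against 126 to 133 CPM, SMS at 64.6 CPM against 78.2 to 95.9 CPM and OAZ1 at 134 CPM against 137 to 205 CPM. SRM at 68.8 CPM, OAZ2 at 43.3 CPM and SAT1 at 149 CPM lay within their range. These are values of 1 library with no group, and no condition is inferred from them.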

How the results depend on the processing

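Libraries could not be paired by replicate number, since the labels carry none, and the block used was one of runs of library numbers inferred from the titles. Over the alternatives and the fits that left out a library, 1165 values for single genes kept their direction and their side of the threshold or moved by less than the spread between libraries, 29 descriptive values moved by more, 8 gained a call, 17 lost one and 31 that were tested changed sign. The 1165 include descriptive values whose sign turned within that spread, such as SRM without vehicle. Settings without hyperoxia library 1 without vehicle (beyond leaving out each library in turn) and the ATRA effect averaged over both exposures were chosen after seeing the data. The cause of these shifts was not tested.

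The number of members called with ATRA in hyperoxia, 1, was 0 in the fit of all 14 libraries, 0 against the libraries without vehicle, 0 against the library without vehicle left when library 1 was removed, and 0 to 1 with each library left out. With ATRA averaged over both exposures 1 member was called. OAZ2 with ATRA gained the oxygen call with no filter on low counts (adjusted p = 0.0371) and with the block of runs (adjusted p = 0.0413). For the vehicle in hyperoxia the count left 0 only with hyperoxia library 1 as the lone library without vehicle. There the median log2 fold change of all genes was 0.34. In the wider list with vehicle the count was 2, and it was 6 with only the vehicle libraries in the fit, 4 with the libraries without vehicle added, 9 with those but library 1, and 1 to 4 with each library left out. The number of all genes called in that comparison was 2616, and 1420 with all 14 libraries, 4665 with only the vehicle libraries, 5258 with vehicle and no-vehicle libraries together but library 1, and 1386 to 3175 with each library left out. With ATRA in hyperoxia the wider list had 1 call with DESeq2 and 0 to 1 with each library left out.

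Against the libraries without vehicle, log2 fold changes with ATRA in hyperoxia were 0.52 for PAOX, 0.27 for SRM, 0.057 for SMS and 0.24 for AMD1, and in normoxia 0.049 for SMOX, 0.17 for OAZ1, 0.044 for OAZ2 and -0.18 for AZIN1, all of changed sign. For SRM and AMD1 this rested on hyperoxia library 1 without vehicle, since without it they were -0.33 and -0.28. Those still of changed sign without that library were 0.37 for PAOX, -0.031 for OAZ1 and 0.068 for SMS. Averaged over both exposures they were 0.001 for SAT1, -0.056 for PAOX, -0.10 for AZIN1 and -0.024 for SMS against normoxia, and -0.007 for OAZ1 against hyperoxia. With each library left out, the oxygen effect with ATRA ranged from -0.51 to 0.12 for PAOX. The ATRA effect in normoxia ranged from -0.39 to 0.12 for SAT1, -0.046 to 0.43 for PAOX and -0.037 to 0.21 for AZIN1, and in hyperoxia from -0.64 to 0.032 for PAOX, -0.013 to 0.19 for OAZ1 and -0.20 to 0.061 for SRM. The difference of ATRA effects ranged from -0.33 to 0.092 for OAZ2 and -0.28 to 0.086 for AMD1, and the vehicle effect in hyperoxia from -0.25 to 1.31 for SRM. None of these values of changed sign passed the threshold. Where leaving out a library left 1 in a group, that library was taken to vary like the others. Depth limits PAOX most.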
